A study of Mus musculus with 2 samples.

Results

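Hepatocyte cells in which mitochondrial RNA made up over 25% of all transcripts were described here in a single-cell RNA sequencing study of mouse liver tumours. A cell, meaning a droplet barcode, was chosen when it had at least 300 genes, over 25% of its unique molecular identifiers (UMIs, each counting 1 captured transcript) from the 13 protein-coding genes of mitochondrial DNA, and at least 5% of its other UMIs from 12 hepatocyte genes. The 12 genes were Alb, Apoa1, Apoa2, Apoc1, Apoc3, Ttr, Serpina1a, Serpina1c, Fgb, Fga, Ahsg and Trf. The rule found 649 of 20142 cells, of which 644 were among the 9493 cells of the control library and 5 among the 10649 cells of the inhibitor library. Both libraries came from C57BL/6 mice aged 17 months that had received the diet named CD-HFD for 15 months, and both were prepared from liver regions with hepatocellular carcinoma. The groups shared that diet, and 1 of them also received an inhibitor of fatty acid binding protein 5 (FABP5) from month 13. Tissue was dissociated with collagenase and handled with an Annexin V kit, and libraries were made with version 2 of the 10x Genomics 3′ chemistry. The labels do not state which fraction of that kit was sequenced, how many mice gave each library or what the control mice received.

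Hepatocytes hold many mitochondria, whose small circular genome encodes 13 subunits of the respiratory chain and ATP synthase. The other subunits of these complexes, and all proteins of mitochondrial ribosomes, are encoded in the nucleus and made in the cytosol. Hepatocytes also secrete most plasma proteins: messages for albumin, apolipoproteins, complement and clotting factors are translated on ribosomes bound to the endoplasmic reticulum (ER), while messages for metabolic enzymes and ribosomal proteins are translated in the cytosol. The cells were selected on their mitochondrial share, on the share of the 12 genes and on their number of genes, so these values are given only as description. Each group was 1 library, so no difference between libraries or groups of cells was tested. All intervals are exact 95% intervals, cover counting error only and treat UMIs as independent. Levels are CPM, the UMIs of a gene per 1000000 non-mitochondrial UMIs, summed over the cells of a group, unless another scale is named.

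The libraries held 53378693 UMIs in the control and 68074929 in the inhibitor library, with a median of 4157 and 5971 per cell. The libraries shared 29 barcodes, of which 5 were among the 644 control cells and none among the 5 inhibitor cells. The chosen cells were 6.78% (interval 6.29 to 7.31%) of control cells and 0.0470% (interval 0.0152 to 0.110%) of inhibitor cells. These shares depend on the minimum of 300 genes. Without it the same limits took in 1645 control and 286 inhibitor cells, because 1001 and 281 cells fell under it, with medians of 173 and 48 genes. Hepatocyte cells of the same libraries at or below 25% mitochondrial UMIs, called low-mitochondrial cells below, numbered 129 and 29. Thus 83.3% of the 773 control cells with the 12 genes from 5% lay over the mitochondrial limit, against 14.7% of 34 in the inhibitor library. At a minimum of 200 genes, an alternative added after seeing the data, the shares were 87.9% and 21.6%. Without any gene minimum the contrast in this share was absent. Then 92.1% of control and 90.8% of inhibitor cells with the 12 genes from 5% lay over the limit. The added cells over the limit had medians of 340 and 39 non-mitochondrial UMIs.

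Within the control library the 644 cells were spread widely on both measures of the rule. Their mitochondrial share ran from 25.3% to 93.9% with a median of 75.6%. The next control hepatocyte cell below the limit was at 24.8%. The share of the 12 genes had a median of 32.6% (range 5.02 to 51.8%), and the nearest cell outside was at 4.95%. The cells were shallow apart from mitochondrial RNA. Their median was 6847.5 UMIs but 1569 non-mitochondrial UMIs and 468.5 genes, and 218 of 644 had under 400 genes. The low-mitochondrial control cells had medians of 3407 UMIs and 940 genes, with 7.94% mitochondrial UMIs and 8.59% from the 12 genes.

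**Figure D1:**
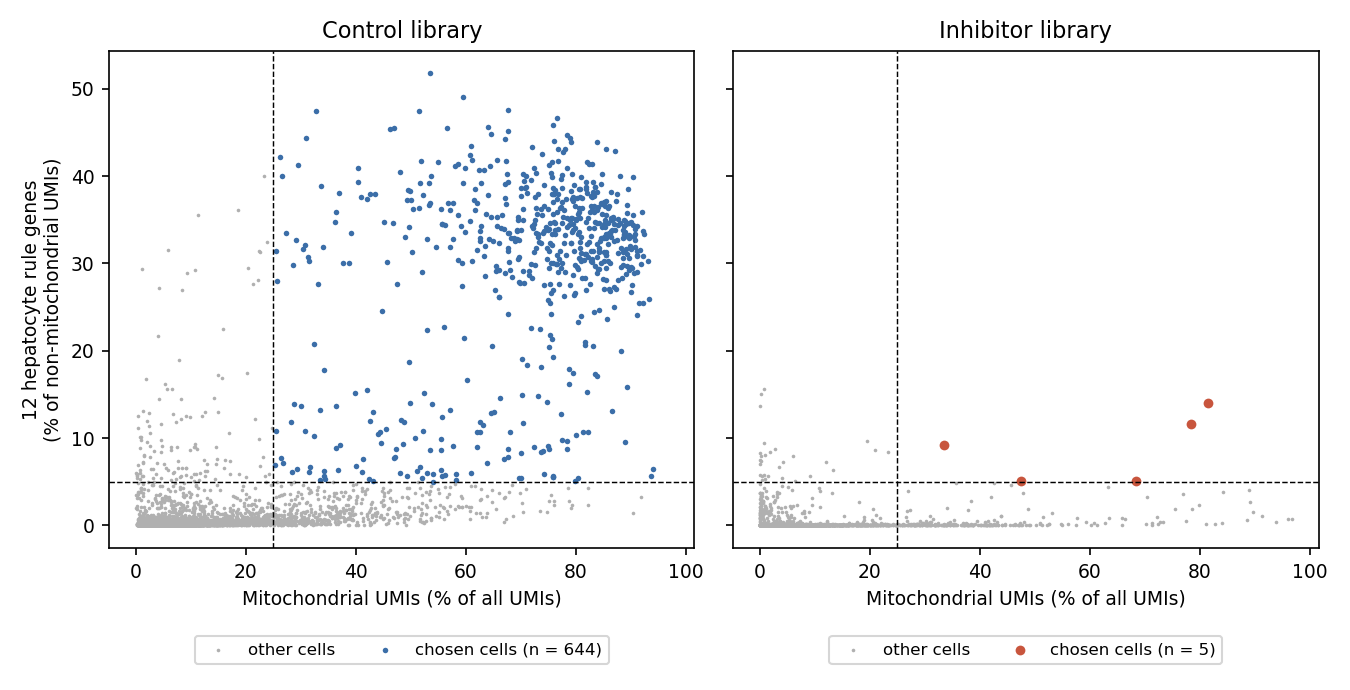
Each point is a cell with at least 300 genes. The horizontal axis is the percent of its UMIs from mitochondrial genes, the vertical axis the percent of its other UMIs from the 12 hepatocyte genes, and dashed lines are the limits at 25% and 5%. Most of the 644 control cells lie at 20% or more of the vertical axis and over 60% of the horizontal one, while the 5 inhibitor cells lie between 5.05 and 13.98% of the vertical axis.

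The plot of cells by both shares shows 2 ranges of control cells, 521 with the 12 genes at 20% or more and 123 at 5 to 20%, a division made after these values were seen. Hepatocyte markers that the rule did not use were present: Apob, Apoh, Hpx, Fgg, Cyp3a11, Cps1 and Hnf4a all had UMIs, and Apob, the structural protein of very low density lipoprotein, was at 2867 CPM. Markers of other cell types stood mainly in the 123 cells. Of these, 74 held 3 or more UMIs of 8 leukocyte genes (Ptprc, Coro1a, Laptm5, Cd52, Rac2, Cd53, Srgn and Tyrobp), against 12 of the 521. Summed leukocyte markers were 5703 CPM in the 123 cells and 268 CPM in the 521, against 398 CPM in all 129 low-mitochondrial cells and 46.1 CPM in the 17 of these at 20% or more. T cell markers were at 1392 and 27.5 CPM, neutrophil markers at 6597 and 115 CPM, and monocyte or macrophage markers at 2334 and 306 CPM, against 15.4 CPM in the 17. Over all 644 cells, 401 had no leukocyte marker UMI. Erythroid markers were concentrated further, since 13 cells held 29101 of 30386 erythroid UMIs. Over all 644 cells the per-cell median of the haemoglobin gene Hbb-bs was 682 CPM, which is about 1 UMI in a cell of median depth. Cholangiocyte (26.4 CPM), endothelial cell (24.2 CPM) and stellate cell or fibroblast (104 CPM) markers were low in the 644 cells. Of these, 1 held 3 or more cholangiocyte marker UMIs, against 12 of the 129 low-mitochondrial cells. In the other direction, Alb was at 8334 CPM in the 508 control cells over the mitochondrial limit that were not hepatocyte cells by the rule, 399 of which had 3 or more leukocyte UMIs. Whether single droplets of the 123 cells held more than 1 cell was not tested, so list comparisons below are given for all 644 cells and, where genes entered, again for the 521.

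The genes of the rule are given first as description. Alb, which encodes serum albumin, was at 132694 CPM, with a per-cell median of 161873 CPM, a lowest value of 11713 and a highest of 298405 CPM. Apoa1, the main protein of high density lipoprotein, was at 40039.6 CPM, and the iron carrier Trf at 25908 CPM. Ahsg was at 17277 CPM, Fgb at 11458, Ttr at 11176, Apoa2 at 9691 and Apoc1 at 6899.6. Serpina1a was at 5242 CPM, Serpina1c at 4539, Fga at 3880.0 and Apoc3 at 2549. The Serpina1 genes are near-identical copies, and their UMIs may be divided among them. Among hepatocyte genes outside the rule, the lipoprotein ligand Apoe had a per-cell median of 59860.1 CPM, the haem carrier Hpx 18055, haptoglobin (Hp) 11997, the vitamin D carrier Gc 9059 and the central complement component C3 8134 CPM.

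The rule used the sum of mitochondrial UMIs and not how they divide among the 13 transcripts. In the 644 control cells, mt-Atp6, a subunit of ATP synthase, took 20.6% of mitochondrial UMIs (interval 20.5 to 20.6%). The 3 subunits of complex IV followed, mt-Co3 with 19.9%, mt-Co2 with 13.9% and mt-Co1 with 12.02%. The complex III subunit mt-Cytb took 10.9%. Of the 7 complex I subunits, mt-Nd2 took 7.80%, mt-Nd4 7.17%, mt-Nd1 4.47%, mt-Nd3 2.02%, mt-Nd5 0.590%, mt-Nd4l 0.432% and mt-Nd6 0.0263%. Per 1000 bases of gene, the shares were 30.2% for mt-Atp6, 25.4% for mt-Co3, 20.4% for mt-Co2, 9.54% for mt-Cytb and 0.0507% for mt-Nd6. mt-Nd6 is the gene of the 13 that lies on the minus strand, at chrM:13552-14070 of GRCm38. Per length mt-Cytb stood above mt-Co1, whose 1545 bases gave 7.78% per 1000 bases, the reverse of their raw shares. Each UMI counts 1 captured transcript of any length. The raw shares, and not these per-length values, therefore compare numbers of captured transcripts.

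Neighbouring mitochondrial genes share bases, which limits what the counts of a pair can show. The sequences below are the plus strand of GRCm38 with 30 flanking bases on each side, read 5′ to 3′, with the shared bases in capitals. The pair mt-Atp8 and mt-Atp6 shares 43 bases at chrM:7927-7969, and mt-Nd4l and mt-Nd4 share 7 bases at chrM:10167-10173.
mt-Atp8 and mt-Atp6: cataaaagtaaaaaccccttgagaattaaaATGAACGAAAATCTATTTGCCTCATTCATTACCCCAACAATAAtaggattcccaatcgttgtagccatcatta
mt-Nd4l and mt-Nd4: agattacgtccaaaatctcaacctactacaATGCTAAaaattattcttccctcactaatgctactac
Each pair is carried on 1 messenger RNA, so a read from the 3′ end of that message falls in the downstream gene. The upstream genes mt-Atp8 and mt-Nd4l had 0.159% and 0.432% of mitochondrial UMIs, against 20.6% and 7.17% for mt-Atp6 and mt-Nd4. The values of mt-Atp8 and mt-Nd4l are therefore not levels of the shared message.

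For mt-Nd1, mt-Nd3 and mt-Atp6 the summed shares of the libraries lay further apart than those of the high- and low-mitochondrial cells within either library. mt-Nd1 took 4.47% (interval 4.45 to 4.49%) in the 644 control cells and 4.07% in the low-mitochondrial control cells, against 8.37% (interval 8.12 to 8.62%) in the 5 inhibitor cells and 6.94% in their low-mitochondrial counterparts. mt-Nd3 took 2.02% and 1.71% in the control against 4.29% and 3.53% in the inhibitor library. mt-Atp6 went the other way, with 20.6% and 20.2% in the control and 16.4% and 16.9% in the inhibitor library. For mt-Co1 the libraries did not separate in this way, with 12.02% and 14.8% in the control and 14.4% and 15.7% in the inhibitor library. Summed over subunits, complex I transcripts were 22.5% in the control and 28.3% in the inhibitor cells, and complex IV transcripts 45.9 and 46.6%. The per-cell medians of the 5 inhibitor cells were 6.64% for mt-Nd1, 3.86% for mt-Nd3 and 18.7% for mt-Atp6. Those of the 644 control cells were 4.46, 1.99 and 20.5%. In cells over the limit that were not hepatocyte cells by the rule, mt-Nd1 took 4.37% of summed mitochondrial UMIs in 508 control and 8.33% in 257 inhibitor cells, but the per-cell medians were 4.35 and 5.15%. For mt-Atp6 the per-cell medians of these cells were 20.2 and 20.3%. Library, mouse and treatment cannot be told apart.

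**Figure D2:**
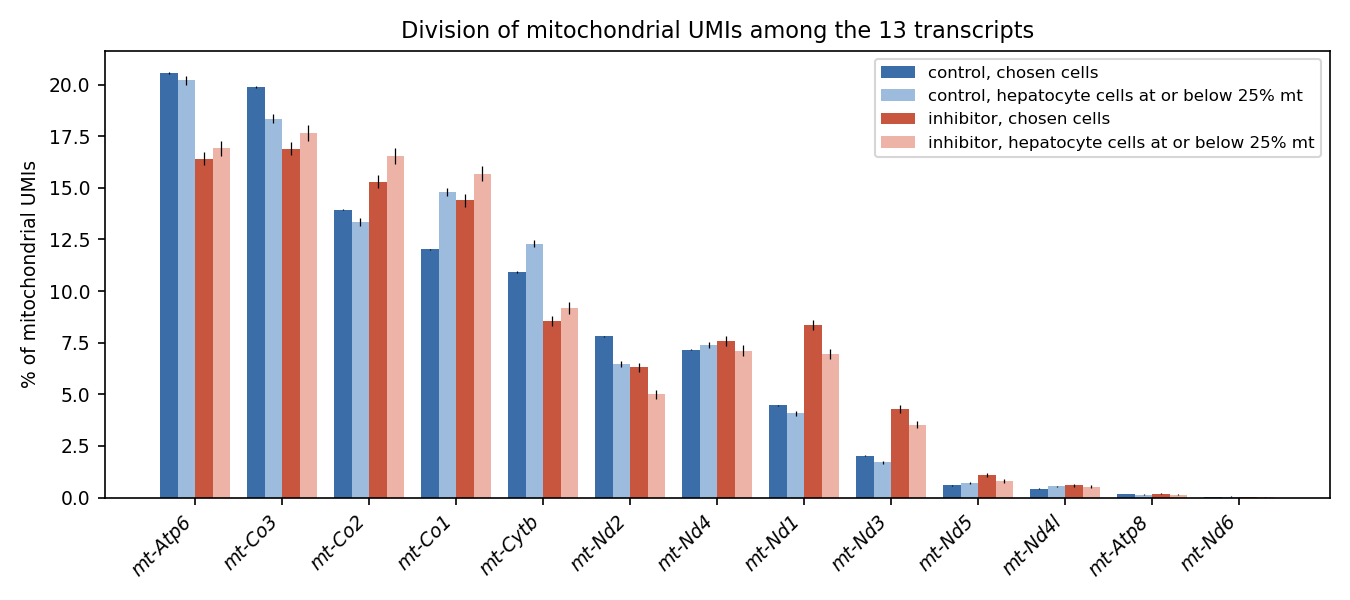
Bars give each mitochondrial transcript as a percent of all mitochondrial UMIs in 4 groups of cells, with 95% counting intervals. mt-Nd1 and mt-Nd3 stand higher in both inhibitor groups than in both control groups, and mt-Atp6 and mt-Cytb lower.

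The division among transcripts was also followed from cell to cell. mt-Nd1 had a median of 4.46% with an SD of 0.477 (n = 644 cells, range 1.93 to 6.33%), and mt-Atp6 a median of 20.5% with an SD of 0.955. In the 85 low-mitochondrial control cells with at least 100 mitochondrial UMIs the SDs were 1.91 and 2.30, at fewer mitochondrial UMIs per cell. Across members with 25 to 40%, 40 to 60% and over 60% mitochondrial UMIs, mt-Nd1 was at 4.48, 4.54 and 4.46%, and mt-Atp6 at 20.04, 20.4 and 20.6%. The 5 inhibitor cells ranged from 4.32 to 9.53% for mt-Nd1 and from 14.8 to 26.2% for mt-Atp6, so both ranges overlapped those of the control cells.

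The nuclear transcriptome of the 644 control cells was then set against that of the 129 low-mitochondrial hepatocyte cells of the same library. A gene entered where it would have at least 10 UMIs on each side at equal CPM, and counts are of genes at least 2-fold apart. Of 7625 genes that entered, 802 (10.5%) were at least 2-fold higher and 3234 (42.4%) at least 2-fold lower in the high-mitochondrial cells, and the median log2 ratio was -0.78. The sides differed in makeup as well as in mitochondrial RNA: the 12 rule genes summed to 271354 CPM against 107549 CPM, and Spp1, which encodes osteopontin, stood at 1828 against 8719 CPM. The same comparison was therefore made within cells holding the 12 genes at 20% or more, 521 high- and 17 low-mitochondrial cells. There 913 genes entered, of which 89 (9.75%) were at least 2-fold higher and 238 (26.1%) lower, with a median of -0.22. Spp1 was then at 1774 and 1769 CPM. This second comparison is called matched below, though its sides still differed in the 12 genes and in depth. The 12 genes summed to 272105 CPM in the 17 cells. In the 521 they were at 349600, 347656 and 333614 CPM over 25 to 60%, 60 to 80% and over 80% mitochondrial UMIs. The 521 cells held 980310 non-mitochondrial UMIs and the 17 cells 130049. On a scale that counts mitochondrial UMIs in the total, the median of all genes moved from -0.78 to -2.63, and the medians of the complement, plasma protein, apolipoprotein, acute phase, hepatocyte, ER, major histocompatibility complex and xenobiotic lists given next turn negative.

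Transcripts for secreted proteins were higher in the high-mitochondrial cells on the non-mitochondrial scale. The rule genes, on which the cells were selected, also encode secreted plasma proteins and differed in the same direction. Their median log2 ratio was 0.95, and 0.29 in the matched comparison. How far the lists of secreted proteins follow from this selection was not tested. Of 27 complement and coagulation genes, 27 entered, 19 were at least 2-fold higher and 0 lower, with a median log2 ratio of 1.33. In the matched comparison 6 of 24 were higher and the median was 0.66. Kng1, which encodes the precursor of bradykinin, was at 8598 CPM in the high- and 1885 CPM in the low-mitochondrial cells, a log2 ratio of 2.19 (interval 2.12 to 2.26), and 0.84 in the matched comparison. Prothrombin (F2) was at 2953 and 949.7 CPM, Serpinf2, the inhibitor of plasmin, at 1614 and 482 CPM, and C3 at 8019 and 4181 CPM. All 4 were higher in the high-mitochondrial cells, C3 by less than 2-fold there and by a log2 ratio of 1.11 in the matched comparison.

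Apolipoproteins outside the rule had 7 of 8 entered genes at least 2-fold higher and a median of 1.63, or 0.63 with 1 of 8 past 2-fold in the matched comparison. Apoe was at 51781 and 21588 CPM and Apob at 2867 and 711 CPM. Apoa4, a component of triglyceride-rich lipoproteins, was at 7056 and 865 CPM, a log2 ratio of 3.03 (interval 2.94 to 3.12) and 1.65 when matched. Acute phase genes had 10 of 19 higher and 0 lower with a median of 1.33, and 5 of 18 higher and 1 lower when matched. Hpx was at 16556 against 6156 CPM, Hp at 10773 against 7178 CPM and Lcn2, which binds bacterial siderophores, at 3921 against 2199.6 CPM. A list of 19 further plasma proteins, chosen after values were seen, had a median of 1.26 and 0.59 when matched. Hepatocyte genes outside the rule divided, with 13 higher and 9 lower of 25, where 10.5% and 42.4% of all genes were. When matched, 2 were higher and 6 lower of 21, near the 9.75% and 26.1% of all genes. In that list the secreted fibrinogen chain Fgg was at 9181 and 2768 CPM.

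Some genes that bring secreted proteins into and through the ER were higher too. In a list of 21 genes for the translocon, glycosylation and folding, chosen after values were seen, 10 were at least 2-fold higher and 2 lower, with a median of 0.98 and 0.69 when matched. Hspa5, the main chaperone of the ER lumen, was at 2226 CPM against 560.2 CPM, a log2 ratio of 1.99 (interval 1.87 to 2.11) and 1.42 when matched. Hsp90b1 was at 1711 and 509.7 CPM, and the disulfide isomerases Pdia6 at 918 and 209 and P4hb at 930.1 and 294 CPM. Genes of the integrated stress and unfolded protein responses, some of which are the same ER chaperones, were divided, with 4 higher and 4 lower of 19, and 5 higher and 1 lower of 11 when matched. Genes of antigen presentation by major histocompatibility complex class I had 3 of 10 higher, against 0 of 5 when matched. Xenobiotic enzymes had 6 higher and 6 lower of 19, or 3 and 3 of 16 when matched. Of all genes, 10.5% were higher and 42.4% lower, and 9.75% and 26.1% when matched.

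**Figure D3:**
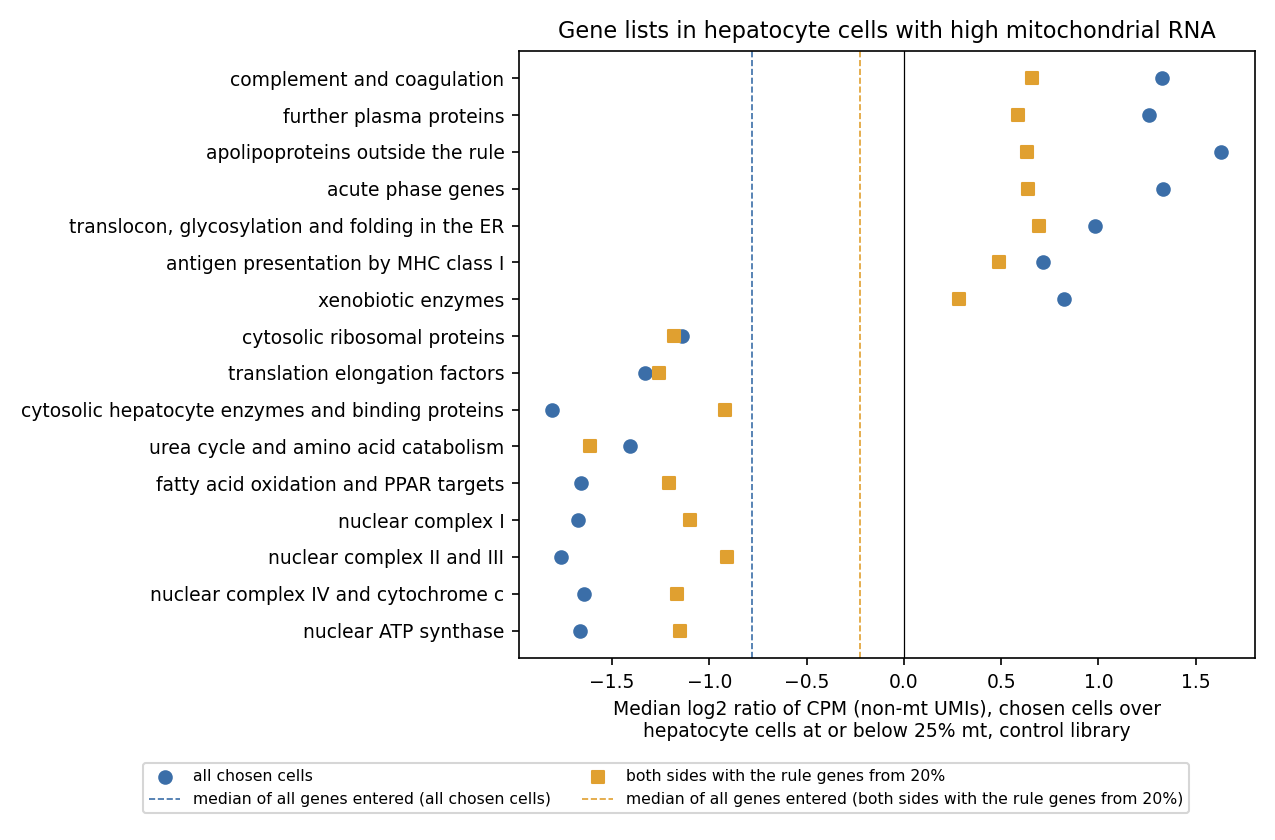
Points give the median log2 ratio of each gene list, high- over low-mitochondrial hepatocyte cells of the control library, for all 644 cells (circles) and for cells with the 12 genes from 20% (squares). Dashed lines give the median of all genes that entered, at -0.78 and -0.22. Lists of secreted proteins lie right of 0 and lists of nuclear respiratory chain, ribosomal and cytosolic genes left of both lines. The further plasma protein, ER, ribosomal, elongation factor and cytosolic hepatocyte lists were chosen after values were seen.

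Nuclear genes for the respiratory chain were lower, in contrast to the mitochondrial transcripts that chose the cells. All 37 nuclear complex I genes entered, 35 of them were at least 2-fold lower and 0 higher, with a median log2 ratio of -1.67, below the -0.78 of all genes. The 11 genes of complex IV and cytochrome c and the 13 of complexes II and III were all at least 2-fold lower, as were 14 of 14 ATP synthase genes, with medians of -1.65, -1.76 and -1.66. In the matched comparison 13 of 22 complex I genes were lower (median -1.10), and 11 of 14 ATP synthase genes (median -1.15). Ndufa6, a complex I subunit, was at 173 CPM against 802 CPM, and Cox4i1, a complex IV subunit, at 423 against 1036 CPM. Atp5b, the catalytic subunit of ATP synthase, was at 246 against 878 CPM, a log2 ratio of -1.83 (interval -2.01 to -1.66) and -1.43 when matched. Mitochondrial gene expression, chaperone and mitophagy lists had medians of -0.96, -1.28 and -1.28, with 5 of 11, 7 of 10 and 6 of 11 genes at least 2-fold lower, where 42.4% of all genes were. In the matched comparison 6 of 10 complex IV genes (median -1.17) and 4 of 8 complex II and III genes (median -0.91) were lower, and 1, 3 and 1 genes of the gene expression, chaperone and mitophagy lists entered.

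Messages of the cytosolic translation machinery were lower too. The list of cytosolic ribosomal proteins was chosen after values were seen. Of 80 such genes that entered, 58 were at least 2-fold lower and 0 higher, with a median of -1.14. When matched, 54 of 78 were lower, with a median of -1.18. Their summed level was 62418 CPM in the 644 cells and 135478 CPM in the low-mitochondrial cells. Without the 86 cells holding 3 or more leukocyte UMIs the median was -2.04. Within cells of 20% or more that had no leukocyte UMI at all, 373 against 15 cells, it was -0.50, so the size of this difference moved with the choice of cells. Eef1a1, which brings aminoacyl-tRNA to the ribosome, was at 1821 against 4485 CPM and Tpt1 at 2135 against 5027 CPM. Both were lower by more in the matched comparison, with log2 ratios of -1.60 and -1.81.

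Cytosolic and mitochondrial enzymes of hepatocyte metabolism were mostly lower. A list of 25 cytosolic hepatocyte enzymes and binding proteins, chosen after values were seen, had 21 of 24 genes at least 2-fold lower and a median of -1.81, or 8 of 19 and -0.92 when matched. Gstm1, which conjugates glutathione, was at 1597 against 6363 CPM, and Bhmt, which makes methionine from betaine and homocysteine, at 228 against 1126 CPM. Genes of fatty acid oxidation and targets of the receptor PPAR had 14 of 20 lower (median -1.66), and 4 of 6 when matched. In that list Acaa2, a thiolase of mitochondrial beta-oxidation, was at 171 against 567 CPM. The urea cycle and amino acid list had 16 of 23 lower (median -1.41; matched -1.61). Cps1, the mitochondrial entry enzyme of the urea cycle, was at 88.3 against 156 CPM, and at 76.5 against 692 CPM when matched. Lipogenesis, cholesterol and bile acid lists were divided, with medians of -0.54, -0.24 and 0.17, and matched medians of 0.49, -0.18 and 0.79 over 5, 8 and 3 genes.

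Antioxidant and metallothionein genes had 9 of 11 at least 2-fold lower (median -1.73), with the peroxidase Prdx1 at 574 against 2176 CPM and the metal-binding Mt1 at 428 against 2916 CPM. In the matched comparison 4 of 7 were lower. Gpx4, which reduces lipid peroxides, was at 397 against 1775 CPM, and the ferritin heavy chain Fth1 at 2459 against 8947 CPM. In the glutathione, iron and ferroptosis list 12 of 19 were lower, but 0 of 7 when matched, where the median was -0.85. Heat shock genes had 6 of 10 lower, and p53 and cell death genes 7 lower and 1 higher of 16, the latter a share close to the 42.4% of all genes. In the matched comparison 2 of 3 heat shock genes and the 1 cell death gene that entered, Cdkn1a, were lower. The cell cycle inhibitor Cdkn1a was at 54.1 against 284 CPM, and at 28.6 against 492 CPM when matched. Transcripts of immediate early genes summed to 2171 CPM over all 644 cells, 6415 CPM in the 123 cells at 5 to 20% and 336 CPM in the 521. Leukocyte markers were higher in the same 123 cells, and their part in this level was not tested.

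Malat1 was low in most of these cells. This long non-coding RNA, which stays in the nucleus, had no UMI in 342 of 644 cells. It was at 682 CPM in the 521 cells at 20% or more and at 21115 CPM in the 123 cells at 5 to 20%, against 6190.0 CPM in the 17 low-mitochondrial cells at 20% or more. In the 508 other control cells over the mitochondrial limit it was at 36966 CPM. Gm42418, an annotated gene that overlaps ribosomal RNA sequence, went the other way, at 17910 against 4757 CPM, a log2 ratio of 1.91 (interval 1.87 to 1.95) and 1.80 when matched. The list of 7 nuclear-retained RNAs, which holds both Malat1 and Gm42418, had 2 genes higher and 1 lower of the 3 that entered the matched comparison, and summed to 12803 CPM in the 17 low-mitochondrial cells and 18494, 23064 and 25406 CPM over 25 to 60%, 60 to 80% and 80%. AY036118, which overlaps ribosomal RNA as well, was at 892 against 230.5 CPM. Malat1 and these genes were singled out after their values were seen.

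The genes with the largest ratios came from several groups. Cyp3a44 was at 80.5 CPM with no UMI in the low-mitochondrial cells, at least 31.9-fold higher against a floor of 3 UMIs over that group, and the related drug-metabolizing enzyme Cyp3a11 was at 151 against 10.1 CPM. These genes have near-identical copies that may share UMIs. Several of the others encode secreted proteins: amyloid P component (Apcs) at 1105 against 135 CPM, the protease inhibitor Serpina3k at 1177 against 165, the lectin Mbl2 at 162 against 19.3 and Igfbp2 at 201 against 24.4 CPM. The ER carboxylesterase Ces1f was at 107 against 9.25 CPM. The matched log2 ratios of Apcs, Serpina3k, Mbl2, Igfbp2 and Ces1f were 1.18, 1.06, 1.72, 1.81 and 1.76. Lyz2, a lysozyme of myeloid cells, was at 417 against 34.5 CPM, and the interferon-induced Ifi27l2a at 842 CPM in the 123 cells and 53.04 CPM in the 521, the part of the leukocyte transcripts in both not being tested.

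Genes at the lower end included keratins and secreted peptides of epithelia. The keratins of simple epithelia Krt18 and Krt8 were at 304 and 271 CPM against 3145 and 2583 CPM, log2 ratios of -3.37 and -3.25, and of -1.26 and -0.71 when matched. Cib3 was at 1.42 against 90.8 CPM, Plet1 at 3.56 against 82.4, the trefoil peptide Tff2 at 1.42 against 47.1, Bex1 at 4.27 against 80.8 and Cystm1 at 23.5 against 278 CPM. Prr15l had 1 UMI, a log2 ratio of -6.28 (interval -11.61 to -3.76). The chemokine Ccl2 was at 14.96 against 199 CPM, a ratio that turned when the 12 genes had to reach 10% (log2 2.34). The small heat shock protein Hspb1 was at 19.2 against 409.6 CPM but at 13.3 against 7.69 CPM when matched. The list of liver tumour and progenitor genes had 11 of 22 lower and 4 higher, where 42.4% and 10.5% of all genes were. When matched, 2 of 14 were lower and 1 higher, where 26.1% and 9.75% of all genes were. Several of these differences thus rested on low-mitochondrial cells with the 12 genes under 20%.

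Within the cells at 20% or more, levels were also followed over the mitochondrial share, from the 17 low-mitochondrial cells through 84 cells over 25 to 60%, 224 over 60 to 80% and 213 over 80%, the last division being made after values were seen. Genes of complement and coagulation summed to 16432, 25412, 28688 and 30811 CPM, and further plasma proteins to 81039, 114825, 120325 and 122144 CPM. Nuclear complex I transcripts were lower in each range than in the one before, at 7859, 4057, 3383 and 2763 CPM. The largest step of these lists lay between the 17 low-mitochondrial cells and the first group over the limit. The cytosolic ribosomal proteins were at 71788 CPM before that step and at 34242, 28631 and 31591 CPM after it. Major urinary proteins, pheromone carriers of male mice, were at 13887, 13119.6, 15769.5 and 19632 CPM. Some marker lists of other cells were higher in each range than in the one before. Erythroid markers were at 261, 671, 1151 and 3367 CPM and monocyte or macrophage markers at 15.4, 142, 241 and 575 CPM. Leukocyte markers were at 46.1, 221, 269 and 315 and stellate cell or fibroblast markers at 15.4, 43.6, 111 and 202 CPM. The share of cells with 3 or more erythroid UMIs changed less, at 29.4, 34.5, 34.4 and 31.9%. Neutrophil markers, at 7.69, 29.0, 201 and 66.0 CPM, and B cell markers, at 7.69, 72.6, 4.63 and 18.3 CPM, did not rise steadily. The part of other cells in the list levels was not tested. The 1001 control cells under the gene minimum had complement transcripts at 29668, ribosomal proteins at 41089 and nuclear complex I at 3345 CPM, against 27266, 42664 and 3257 CPM in the 493 chosen control cells over 60%.

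**Figure D4:**
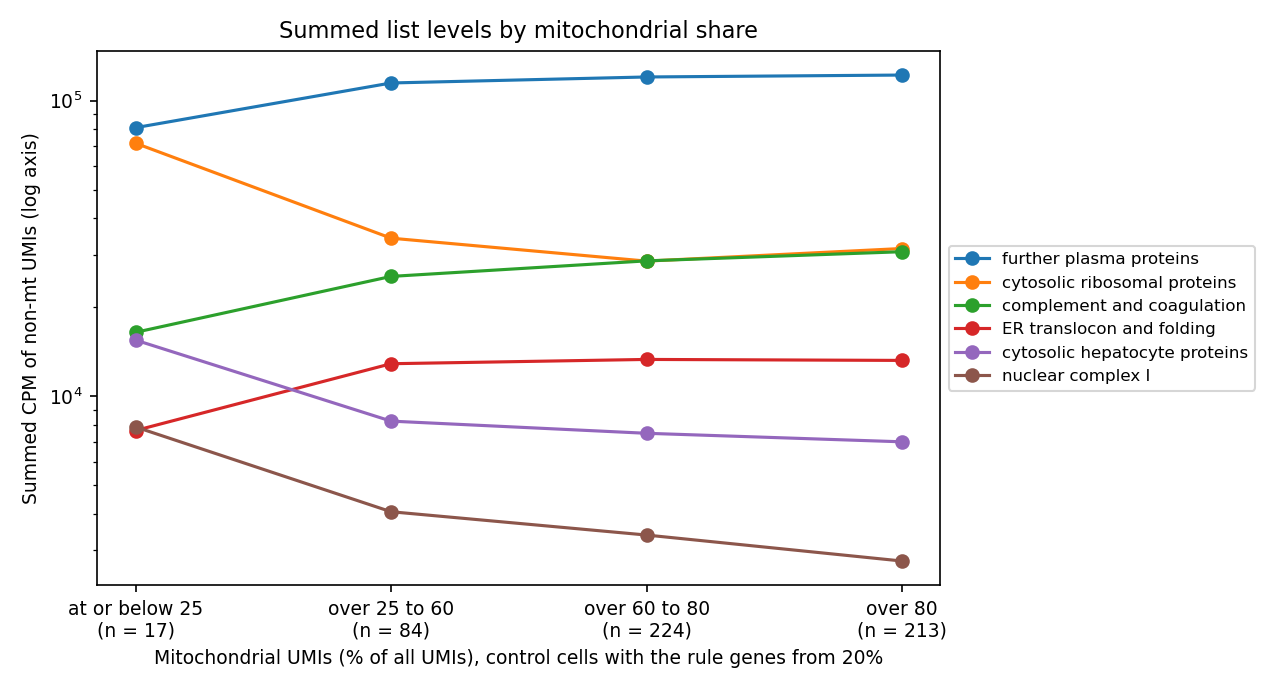
Lines give the summed CPM of 6 gene lists (log axis) in control cells with the 12 genes from 20%, in 4 ranges of mitochondrial share. Further plasma protein, complement and ER lists stand higher in all 3 groups over 25% than in the 17 cells at or below it, and ribosomal, cytosolic and nuclear complex I lists stand lower. The further plasma protein, ER, ribosomal and cytosolic lists were chosen after values were seen.

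The 5 inhibitor cells were few and unlike most of the control cells. They had 39732, 14252, 13625, 3801 and 2008 UMIs, with 68.3, 78.4, 47.4, 81.4 and 33.4% from mitochondrial genes and 5.08, 11.6, 5.05, 14.0 and 9.20% from the 12 genes. The deepest cell held 50.6% of their 24904 non-mitochondrial UMIs. None had a Ptprc UMI. Of the 5, 1 held 3 or more leukocyte marker UMIs, 3 held 3 or more monocyte or macrophage marker UMIs and 1 held 3 or more cholangiocyte marker UMIs. All lay in the range of 5 to 20% that also held the 123 control cells. Alb, used by the rule, was at 20117 CPM in the inhibitor cells, 49671 CPM in the 123 and 168587 CPM in the 521 control cells.

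The 5 cells carried transcripts of pericentral hepatocytes, the cells next to the central vein of the liver lobule. Glul, the glutamine synthetase that marks these cells, was at 13090.3 CPM with 244, 9, 58, 0 and 15 UMIs in the 5 cells, against 10.7 CPM (15 UMIs) in all 644 control cells. The log2 ratio was 10.26 (interval 9.52 to 11.11). Oat, an ornithine aminotransferase with the same zone, was at 9276 against 11.4 CPM. Cyp2e1, the ethanol-metabolizing cytochrome, was at 5260.2 against 8.55 CPM. The glutamate transporter Slc1a2 had 185 UMIs (7429 CPM), in 3 of the 5 cells, and none in the control cells, which is at least 3477-fold higher against a floor of 3 UMIs over the group. The pericentral list summed to 55774 CPM in the inhibitor and 408 CPM in the control cells. None of its genes entered the count of genes, for lack of UMIs at equal CPM, and these genes were singled out after their values were seen. The cell with 3801 UMIs had no Glul, Oat, Slc1a2 or Cyp2e1 UMI. Afp, a gene of the liver tumour and progenitor list, had 7 UMIs in that cell, 8 in the deepest cell and none in the others. The same division stood in the low-mitochondrial cells, with Glul at 6484 CPM in 29 inhibitor cells and 23.6 CPM in 129 control cells. The difference was thus present on both sides of the mitochondrial limit. Library, treatment, place in the tissue and origin from tumour or other liver cells cannot be told apart.

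Over all genes, 257 entered the comparison of the 5 inhibitor with the 644 control cells. Of these, 22 (8.56%) were at least 2-fold higher and 121 (47.1%) at least 2-fold lower, with a median log2 ratio of -0.86. The sides held 24904 and 1404135 non-mitochondrial UMIs, so a gene could enter almost only through its control UMIs. Genes high mainly in the inhibitor cells, such as Glul and Slc1a2, did not enter. The shares of higher and lower genes therefore lean towards lower. These counts were 3 and 21 where the 12 genes had to reach 10%, and 371 and 385 where 2% sufficed. Higher in the inhibitor cells were Scp2, a peroxisomal sterol carrier, at 5501 against 501 CPM (log2 ratio 3.46, interval 3.18 to 3.72), and Fth1 at 10922 against 2459 CPM (log2 ratio 2.15, interval 1.97 to 2.33). Hsp90ab1 was at 2329 against 533 CPM, the fatty acid desaturase Scd1 at 4497 against 1394, the selenium carrier Selenop at 6023 against 2242 and H2-K1 at 5662 against 2472 CPM. Eef1a1 was at 3774 against 1821 CPM and Itm2b, at less than 2-fold, at 2329 against 1214 CPM. Gstm1 was at 4096 against 1597 CPM, but lower where the 12 genes had to reach 10% (log2 ratio -2.73). Scp2 was also at 3496 CPM in the low-mitochondrial inhibitor cells and 1902 CPM in those of the control. In the 123 control cells at 5 to 20%, the hepatocyte range of the 5 inhibitor cells, Scp2 was at 434, Fth1 at 4363 and Hsp90ab1 at 852 CPM. All 3 were higher in the inhibitor cells than in these 123. Of the 123, however, 74 held 3 or more leukocyte marker UMIs, and the part of leukocyte transcripts in their levels was not tested.

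**Figure D5:**
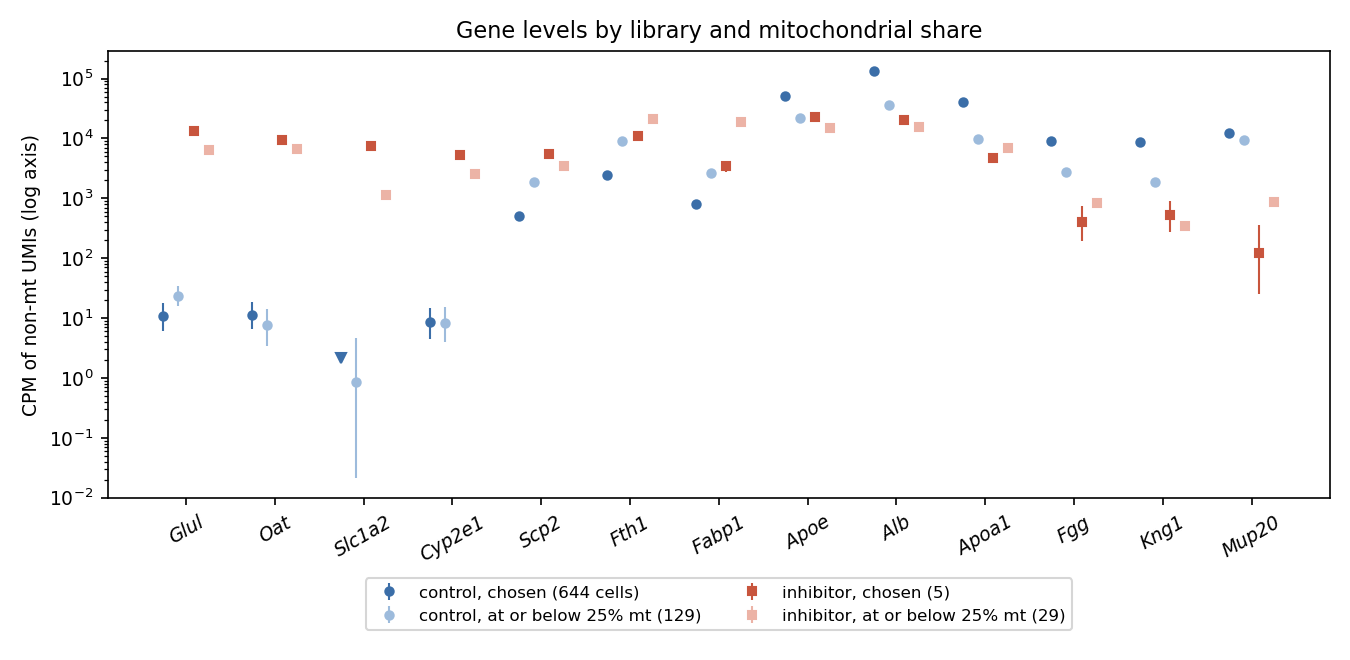
Points give CPM (log axis) of 13 genes with 95% counting intervals in high- and low-mitochondrial hepatocyte cells of both libraries, and the downward triangle marks the floor of 3 UMIs for Slc1a2, which had none. Glul, Oat, Slc1a2 and Cyp2e1 stand at 1138 CPM or more in both inhibitor groups and under 25 CPM in both control groups, and Fgg, Kng1 and Mup20 are lower in both inhibitor groups.

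Many but not all secreted protein transcripts were lower in the 5 inhibitor cells. Fgg was at 402 against 9181 CPM (log2 ratio -4.51, interval -5.58 to -3.64), Kng1 at 522 against 8598 CPM, and Serpina1b at 602 against 10188 CPM. Serpina1d had 2 UMIs, a log2 ratio of -4.72 (interval -7.77 to -2.87). The major urinary protein Mup20, whose per-cell control values ran from 0 through a median of 10679 to 124105 CPM, had 3 UMIs against 17654, a log2 ratio of -6.71 (interval -8.98 to -5.16). No UMI was found for Cyp2a4, Spp1, Hsd17b13, Serpina3k or Apcs, which were at least 31.3, 15.2, 10.1, 9.77 and 9.17-fold lower against a floor of 3 UMIs. C3 was about level, at 7910.4 against 8019 CPM, as were the rule genes Apoa2 at 10802 against 9691 and Apoc1 at 7589 against 6899.6 CPM. Selenop and, singled out after their values were seen, Hamp, Igfbp4 and Apoc4 were at least 2-fold higher, with log2 ratios of 1.43, 1.68, 1.72 and 1.03. Complement and coagulation genes had 9 of 12 lower (median -1.38) and acute phase genes 8 of 12 lower and 1 higher (median -2.36, which became 0.20 where the 12 genes had to reach 10%), against 47.1% of all genes. Ribosomal protein genes had 18 of 67 lower and a median of -0.62, a smaller share than the 47.1% of all genes and a median above their -0.86. The 47.1% and the list counts are of genes that entered almost only through their control UMIs. Within the 123 control cells, 74 of which held 3 or more leukocyte marker UMIs, Fgg was at 2963 CPM. Kng1 was at 3244 and Mup20 at 5667 CPM there, and each of these genes lay above the inhibitor cells but below the 644. The 12 rule genes differed with these lists, at 63604 CPM summed in the inhibitor, 102644 in the 123 and 344293 in the 521 control cells.

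Within the inhibitor library the 5 cells could be set against 29 low-mitochondrial cells. Of 392 genes that entered, 26 (6.63%) were at least 2-fold higher and 139 (35.5%) lower, with a median of -0.68. Entry rested mainly on UMIs of the 29 cells, which held 377836 non-mitochondrial UMIs against 24904. Nuclear complex I had 6 of 9 genes lower (median -1.13), nuclear ATP synthase 9 of 13 (median -1.16) and cytosolic ribosomal proteins 43 of 74 (median -1.04). The medians in the control library were -1.67, -1.66 and -1.14. Complement and coagulation genes had 2 of 4 higher and apolipoproteins 2 of 5. Pericentral genes had 6 of 13 higher, including Slc1a2 at 7429 against 1138 CPM. Gm42418 was higher in this library too, at 16262 against 2742 CPM.

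Fatty acid binding proteins, the family to which the inhibitor's target belongs, carry fatty acids in the cytosol. Fabp5, the target, was at 92.6 CPM in the 644 control cells and 495 CPM in the low-mitochondrial control cells, a log2 ratio of -2.42 (interval -2.70 to -2.14), and at 99.97 against 646 CPM when matched. The 5 inhibitor cells held 1 Fabp5 UMI (40.2 CPM), and the log2 ratio to the control cells was -1.21 (interval -6.52 to 1.30), so that no difference was detectable at this depth. The agent acts on the protein, so the level of the message gives no check of the treatment. Fabp1, the liver form, was at 818 CPM in the 644 and 2615 CPM in the low-mitochondrial control cells, and at 3453 and 18879 CPM in the inhibitor library. It was thus lower in the high-mitochondrial cells of both libraries, with log2 ratios of -1.68 (interval -1.78 to -1.58) and -2.45, and higher in the inhibitor than in the control cells. Per control cell the median was 430.4 CPM, and 265 of 644 cells had no UMI. Fabp2, the intestinal form, was at 79.1 and 327 CPM in the control and 683 and 1331 CPM in the inhibitor library. Fabp4 was at 14.96 and Fabp7 at 2.85 CPM, and Fabp3, Fabp6 and Crabp1 had no UMI in the 644 cells. Among sex-chromosome genes, Xist had no UMI in the chosen cells of either library, Ddx3y was at 34.2, Eif2s3y at 27.1, Kdm5d at 8.55 and Uty at 6.41 CPM in the control cells, and Eif2s3y at 80.3 CPM with no Ddx3y UMI in the inhibitor cells.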

How the data were processed

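The deposited matrices hold raw UMI counts for each cell of the 2 libraries, 1 per group. The authors made these counts with Cell Ranger 5.0.1, per the file headers. The submitters' processing notes also name R 3.0, Seurat 3 and genome build mm9. Of 31053 gene identifiers, 30934 were found in the GENCODE annotation of GRCm38, 30468 with the same symbol, and mitochondrial positions and sequences are from GRCm38. All deposited cells were used, no doublet caller was run, and 29 barcodes occurred in both libraries.

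UMIs were summed over cells and divided by all non-mitochondrial UMIs of the group. Ratios have exact conditional binomial intervals, levels exact Poisson and shares Clopper-Pearson intervals, all at 95%. Where a group had no UMI of a gene, its ratio was computed with 3 UMIs in place of 0. No hypothesis was tested, since each group was 1 library, and the scripts were tested on simulated data (Python 3.11.15, numpy 2.4.6, scipy 1.17.1, pandas 2.3.3).

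Named genes were, per comparison, the 10 highest and 10 lowest by the interval bound nearest to 1, among genes with at least 50 UMIs found in at least 10% of cells of the higher side. Mitochondrial, ribosomal protein, haemoglobin, antigen receptor, unnamed and rule genes were left out of that choice. To these were added the mitochondrial, fatty acid binding and sex-chromosome genes and the 4 members of each list with the most UMIs. Some of these genes are not reported here. Any other gene named was chosen after its values were seen. The cells and lists were chosen with earlier results of these data known, and 5 of the lists after values in these cells were seen. Of 625 list symbols 5 were absent from the counts. In all, 20 alternatives were run, 14 planned and 6 added after seeing the data.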

Additional observations from a re-analysis of the deposited data

Results flagged for a closer look

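Lyz2 went in opposite directions in the 2 libraries. In the control library it was at 417 CPM in the 644 high-mitochondrial and 34.5 CPM in the 129 low-mitochondrial hepatocyte cells, a log2 ratio of 3.60 (95% counting interval 3.14 to 4.09). In the inhibitor library it was at 402 CPM in 5 and 1498 CPM in 29 cells, a log2 ratio of -1.90 (interval -2.97 to -1.01) from 10 UMIs in the 5 cells. The difference between the libraries was not tested. Lyz2 was about equal in the chosen cells of both libraries, and the opposite directions came from the low-mitochondrial cells. The summed monocyte or macrophage markers, of which Lyz2 is a member, were at 109 CPM in the 129 low-mitochondrial control cells and 1810.3 CPM in the 29 of the inhibitor library. Of these cells, 8 of 129 and 7 of 29 held 3 or more such UMIs. In the chosen cells the markers were at 918 and 482 CPM. Their part in the result was not tested.

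Hepatocyte transcripts also stood in inhibitor cells that the rule left out. Among the 257 inhibitor cells over the mitochondrial limit with the 12 genes under 5%, 29 had 5 or more Glul UMIs, against 0 of 508 such control cells, with the limit of 5 UMIs chosen after values were seen. In these 29 cells Glul was at 9663 CPM, Oat at 3525 CPM, the glutamate transporter Slc1a2 at 4071 CPM and Cyp2e1 at 2807 CPM. Alb was at 6718 CPM and Apoe at 9751 CPM. The pan-leukocyte gene Ptprc was at 118 CPM, against 1046 CPM over all 257 cells. Their mitochondrial share had a median of 51.4% (range 26.7 to 93.9%), their share of the 12 genes a median of 1.90% (range 0.372 to 4.87%) and their genes a median of 3165. The count of 5 inhibitor cells given by the rule thus leaves out more Glul-positive cells over the mitochondrial limit than it takes in.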

How the results depend on the processing

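No paired analysis was possible because the labels carry no replicate numbers and each group is 1 library. Chosen cells were 6.78% of control cells; the share was 6.27% over 40% mitochondrial UMIs, 6.08% and 5.49% with the 12 genes from 10% and 20%, 2.15% from 600 genes and 5.88% without cells holding 3 leukocyte UMIs. Under alternatives added after seeing the data it was 10.7% from 200 genes, 17.3% with no gene minimum (2.69% of inhibitor cells), and 8.51% and 9.83% with the 12 genes from 2% and 1% (0.188% and 0.310%). With the 12 genes from 20% the inhibitor share was 0. Genes at least 2-fold higher and lower in inhibitor over control cells, 22 and 121, numbered 178 and 203 over 20% mitochondrial UMIs, 3 and 21 with the 12 genes from 10%, 6 and 76 without the 5% deepest cells, and 371 and 385 with the 12 genes from 2%. The higher genes numbered 72 at a minimum of 5 UMIs and 39 with no gene minimum, and 9 higher and 77 lower passed at 20 UMIs. With the 12 genes from 10%, the acute phase median turned to 0.20 and Gstm1 to -2.73, and with 2% the nuclear-retained median turned to 0.062.

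Genes at least 2-fold higher and lower in high- over low-mitochondrial control cells, 802 and 3234, numbered 310 and 1373 with the 12 genes from 10%, and 89 and 238 from 20%. The higher genes numbered 407 without cells holding 3 leukocyte UMIs, 63 on CPM of all UMIs, 507 at 20 UMIs and 1207 at 1.5-fold. Ccl2 turned to 2.34 from 10%, and Hspb1 to 0.79 from 20%. The complement median, 1.33, was 0.66 from 20%, and the ribosomal median, -1.14, was -2.04 without cells holding 3 leukocyte UMIs. On CPM of all UMIs the nuclear complex I and ribosomal medians were -3.39 and -2.86. On that scale these medians turned: complement -0.39, further plasma proteins -0.45, acute phase -0.38, apolipoproteins -0.082, hepatocyte genes outside the rule -0.34, major urinary proteins -0.18, both hepatocyte marker lists -0.31 and erythroid -0.45. Erythroid was -0.56 with equal weight per cell. Cells from 20% with no leukocyte UMI, an alternative added after the next one had been seen, numbered 3.93% (control) and 0% (inhibitor), with 36 genes higher and 62 lower, and medians of -0.82 for complex I, 0.50 for complement and -0.50 for ribosomal proteins, and Hspb1 at 0.39. Cells from 20% with no leukocyte or erythroid UMI were 0.506% and 0%, with 7 genes higher and 3 lower. That setting left 48 cells against 1 low-mitochondrial cell, and there acute phase (-0.30), further hepatocyte markers (-0.34), Cyp3a44 (-3.68), Lyz2 (-4.27), Cyp3a11 (-1.94), Ces1f (-3.68), Ifi27l2a (-4.27), Igfbp2 (-1.10) and Mbl2 (-2.57) turned. The cause of these moves was not tested. Under the alternatives, 889 of 1079 list medians stayed within 1.5-fold of the main value, 424 of 651 ratios of named genes and 181 of 273 mitochondrial transcript shares within their counting interval, 42 of 66 counts of genes within 1.5-fold and 11 of 28 shares of chosen cells within their interval.

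With 1 library per group nothing here separates treatment from mouse, dissection or preparation. The inhibitor side rests on 5 cells and 24904 non-mitochondrial UMIs, so genes at low levels there could not be compared. The matched comparison rests on 17 low-mitochondrial cells. Near-identical copies among the Serpina1, Mup, Cyp3a and haemoglobin genes may share UMIs.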
